A study of Mus musculus with 2 samples.

Results

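Cdkn1c and 9 further genes that control the kinases of the cell cycle were compared between mouse embryonic fibroblasts (MEFs) carrying only maternal or only paternal copies of the distal part of chromosome 7. The group comprises the inhibitors of cyclin-dependent kinases (CDKs) Cdkn1c, Cdkn1a, Cdkn1b, Cdkn2a, Cdkn2b, Cdkn2c, Cdkn2d and Cdkn3 and the D cyclins Ccnd1 and Ccnd2. Members were the genes named by a probe set whose annotation holds a single gene symbol. This gave 9 of the 10 genes a value, among 19938 genes measured in the same way. Cdkn1a, the main p53-induced inhibitor, is named by a probe set that carries 2 symbols, so it has no value here. Of the 9 measured genes, 8 had 1 probe set, and Cdkn1b had 2.

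CDKs drive the cell cycle once a cyclin binds them. The D cyclins bind Cdk4 and Cdk6 in response to growth factors, and the active kinases phosphorylate the retinoblastoma protein and its relatives, which releases E2F transcription factors and starts S phase. Inhibitors of the INK4 family, encoded by Cdkn2a, Cdkn2b, Cdkn2c and Cdkn2d, bind Cdk4 and Cdk6. Those of the Cip/Kip family, encoded by Cdkn1a, Cdkn1b and Cdkn1c, bind cyclin-CDK complexes more broadly. Cdkn1c encodes Kip2, is imprinted and expressed from the maternal chromosome, and restrains growth of the embryo, which makes it the member that parental origin of the distal segment bears on directly.

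The cultures were MEFs of genotype MatDup.dist7, in which the distal part of chromosome 7 has a maternal origin on both copies, and of genotype PatDup.dist7, in which it has a paternal origin on both. Embryos of both were taken at 13.5 days post coitum, and both cultures were grown in the same serum-containing medium, per the labels. Total RNA of each was hybridised to 1 whole-transcript Affymetrix array, so each genotype is 1 sample, with no replicate, and no difference could be tested against the spread between cultures. How many embryos stand behind each culture, and its passage, are not stated in the labels.

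The deposited values are linear intensities per probe set, with medians of 68.6 (MatDup.dist7) and 64.2 (PatDup.dist7) over 35557 probe sets. Differences are given as log2(intensity + 16) of MatDup.dist7 minus that of PatDup.dist7, so a positive difference is a higher signal in MatDup.dist7 and 1 is a 2-fold difference. The constant of 16 damps, and so understates, differences of weak signals. The median difference over all genes was 0.02. The genotypes also differed in sex-linked transcripts, with Xist at 0.00166 and 91.2 and the Y-linked Eif2s3y at 112 and 6.44 in MatDup.dist7 and PatDup.dist7, so genotype and the sex of the cultures cannot be told apart for any gene below. The paternally expressed Igf2, the reciprocal check of the labels, had 7.48 and 1013.

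Cdkn1c was the member with the largest difference. Its probe set had a signal of 1109 for MatDup.dist7 RNA and 0.0132 for PatDup.dist7 RNA, a difference of 6.13 in log2 or 70.3-fold on this scale. The PatDup.dist7 value lies at the bottom of that array, where 3.93% of all probe sets had a lower one, so the size of the ratio is not settled by these values and the low value does not show that the transcript is absent. With a constant of 1 the difference was 10.1, with 64 it was 4.20, and with both values raised to at least the 25th percentile of the signals it was 5.66. The next largest difference among the members was the -1.82 of Cdkn2b. As the gene is imprinted in the segment that defines the genotypes, its difference checks the labels.

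**Figure D1:**
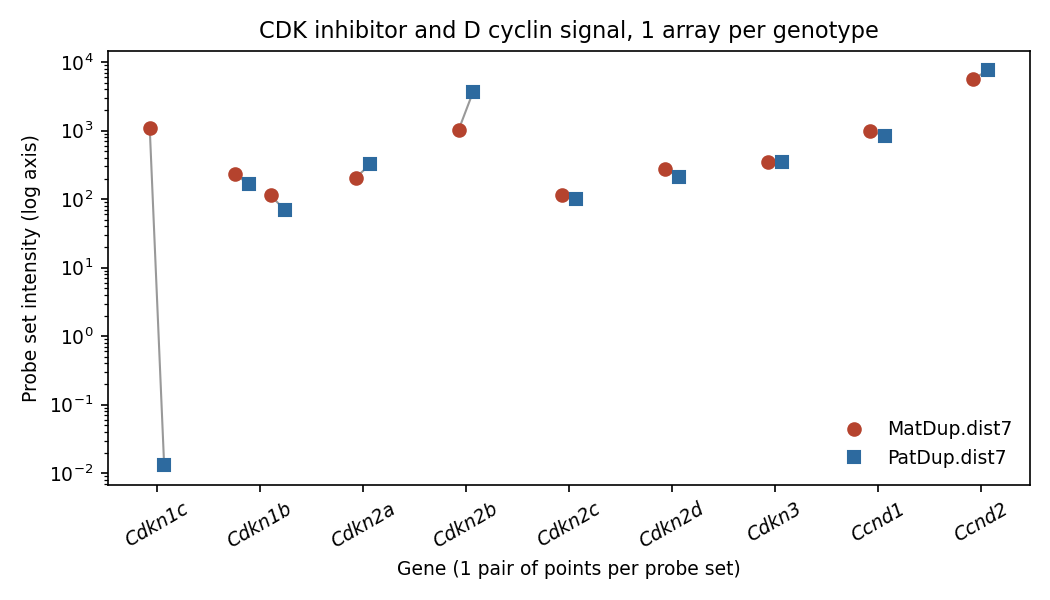
Intensity of each probe set of the 9 measured genes (vertical log axis, no unit) for MatDup.dist7 (red circles) and PatDup.dist7 (blue squares), 1 array each, joined by a grey line per probe set. Cdkn1c runs from 1109 to 0.0132, Cdkn2b from 1026 to 3659 in the other direction, and the remaining pairs lie close together.

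The other measured Cip/Kip gene, Cdkn1b, was also higher in MatDup.dist7, by less than 2-fold. Cdkn1b encodes Kip1, which holds resting cells out of the cycle by inhibiting Cdk2 complexes. Its first probe set had 234 for MatDup.dist7 RNA and 164 for PatDup.dist7 RNA, a difference of 0.47. Its second had 113 and 68.7, a difference of 0.61. Both probe sets thus stood higher in MatDup.dist7, and their mean difference was 0.54, or 1.45-fold. Cdkn1b was therefore not higher on the array where Cdkn1c was low. Its difference stayed between 0.40 and 0.62 over 8 alternatives, of which the signal filter and the omission of values under 1 could not change it.

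Within the INK4 family the direction was split, with 2 of 4 genes higher in PatDup.dist7 and 2 higher in MatDup.dist7. Over all genes, 48.6% were higher in PatDup.dist7, so the split is not particular to this family. Cdkn2b, which encodes Ink4b and is known as a target of transforming growth factor beta, had 1026 for MatDup.dist7 RNA and 3659 for PatDup.dist7 RNA. The difference was -1.82, or 3.53-fold, the only one past 2-fold among the inhibitors besides Cdkn1c. Among the 12866 genes with a probe set above the median signal (an intensity of 66.4) on at least 1 array, it was the 42nd most strongly shifted towards PatDup.dist7. The value ran from -1.90 to -1.76 over 8 alternatives, and both signals lie far above the bottom of the scale. With 1 probe set and strong signals, some alternatives could not change it. These were the choice of the brightest probe set, the signal filter and the omission of values under 1. The range therefore reflects the constants, the floor and the scalings only.

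Cdkn2a, the neighbour of Cdkn2b on chromosome 4, had 205 for MatDup.dist7 RNA and 322 for PatDup.dist7 RNA, a difference of -0.61 or 1.53-fold. This gene makes both the INK4 inhibitor Ink4a and, from an upstream first exon, the unrelated Arf protein, which stabilises p53. Its 1 probe set is annotated to transcripts of both kinds, so the signal does not separate them. Cdkn2c, encoding Ink4c, had 114 and 102 (difference 0.14). Cdkn2d, encoding Ink4d, had 277 and 210 (difference 0.38). These 2 lay within 1.30-fold between the arrays and went the other way from Cdkn2a and Cdkn2b.

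The measured genes flanking the Cdkn2a and Cdkn2b pair, picked as neighbours after the values were seen, differed less than Cdkn2b. Mtap, which encodes a methionine salvage enzyme and lies next to Cdkn2a in gene order, had 396 and 514 (difference -0.36). Dmrta1, a transcription factor gene on the side of Cdkn2b, had 46.7 and 48.9 (difference -0.05). Beyond it, Zfp352 and Elavl2 had differences of 0.36 and 0.58. Beyond Mtap on the other side, Mir31 and Ifne had differences of 0.06 and 0.26. None of these 6 neighbours differed by 2-fold, which only 7.63% of all genes did, and they went both ways. Of the genes above the median signal, 0.746% were as far apart as Cdkn2b, so smaller differences in its neighbours say little about the locus.

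The promoters of the pair higher in PatDup.dist7 are shown beside that of Cdkn1b, 1 of the 4 other inhibitors higher in MatDup.dist7. Each is the 250 bases before the annotated start, from RefSeq on build GRCm38.p6, in the direction of transcription, with GC boxes (GGGCGG or CCGCCC, which is the same motif on the other strand) in capitals. The Cdkn2b window is chr4:89311033-89311282 (minus strand). The upstream Cdkn2a start, which serves Arf, has the window chr4:89294620-89294869, and the downstream start, which serves Ink4a, chr4:89282193-89282442 (both minus strand). The Cdkn1b window is chr6:134920151-134920400 (plus strand).
Cdkn2b: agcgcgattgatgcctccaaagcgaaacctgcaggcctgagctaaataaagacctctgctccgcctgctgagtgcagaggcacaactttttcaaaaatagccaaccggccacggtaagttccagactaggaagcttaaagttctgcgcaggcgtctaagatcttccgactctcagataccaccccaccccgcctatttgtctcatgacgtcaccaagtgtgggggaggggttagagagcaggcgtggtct
Cdkn2a, upstream start: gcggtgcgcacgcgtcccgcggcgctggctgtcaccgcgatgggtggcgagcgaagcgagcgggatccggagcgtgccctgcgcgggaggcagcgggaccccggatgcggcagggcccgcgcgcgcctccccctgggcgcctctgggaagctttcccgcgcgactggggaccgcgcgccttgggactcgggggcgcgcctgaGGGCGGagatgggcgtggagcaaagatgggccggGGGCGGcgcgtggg
Cdkn2a, downstream start: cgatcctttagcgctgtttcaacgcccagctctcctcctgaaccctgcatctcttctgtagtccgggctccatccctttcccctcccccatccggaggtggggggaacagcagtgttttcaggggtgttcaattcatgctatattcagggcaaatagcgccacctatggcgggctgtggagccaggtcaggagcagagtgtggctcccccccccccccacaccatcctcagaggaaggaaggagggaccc
Cdkn1b: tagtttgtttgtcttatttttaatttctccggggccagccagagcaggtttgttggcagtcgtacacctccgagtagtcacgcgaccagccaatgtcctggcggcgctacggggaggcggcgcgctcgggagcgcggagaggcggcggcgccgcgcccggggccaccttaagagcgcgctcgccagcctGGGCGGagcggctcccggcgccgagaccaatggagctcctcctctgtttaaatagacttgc

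Of the Cdkn2a windows, the downstream one was closer to that of Cdkn2b in base composition than the upstream one. The Cdkn2b window was 53.6% G or C with 12 CG dinucleotides and held no GC box. The upstream Cdkn2a window was 78.4% G or C with 40 CG dinucleotides and 2 GC boxes, and the downstream one 60.0% with 7 and none. The Cdkn1b window had 64.4%, 28 CG dinucleotides and 1 GC box. Of all 32851 windows of this length in the table, 32.7% held a GC box, and the median window had 52.4% G or C and 6 CG dinucleotides. The table had entries for 7 of the 10 genes (10 windows, 6 with a GC box). Among the windows not printed, those of Cdkn1a held 0 and 2 GC boxes and those of Cdkn2c 3 and 0. That of Cdkn2d held 3 and that of Cdkn3 1. Cdkn1b is thus 1 chosen example, and no link of base composition to direction was tested. A match or its lack describes these letters only.

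Counted gene by gene, the array with little Cdkn1c did not show a general excess of the other measured inhibitors. Cdkn1a has no value here. The count gives no extra weight to Cdkn2b, which had the strongest signal of these inhibitors on both arrays (1026 and 3659). Of the 6 other inhibitors measured, Cdkn2a and Cdkn2b were higher in PatDup.dist7 and 4 were higher in MatDup.dist7. Over all genes, 48.6% were higher in PatDup.dist7, above the 33.3% of these inhibitors. When each array was centred on its median, Cdkn3 joined them, making 3 of 6 against 53.6% of all genes. Their median difference was 0.08, near the 0.02 of all genes, while their mean was -0.23 because of Cdkn2b. Without Cdkn2b, 1 of 5 was higher in PatDup.dist7, the median was 0.14 and the mean 0.09. At least 2-fold higher in PatDup.dist7 was 1 of 6, Cdkn2b, against 3.16% of all genes, so this count rests on 1 gene. At least 2-fold higher in MatDup.dist7 was none of the 6, against 4.47% of all genes.

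**Figure D2:**
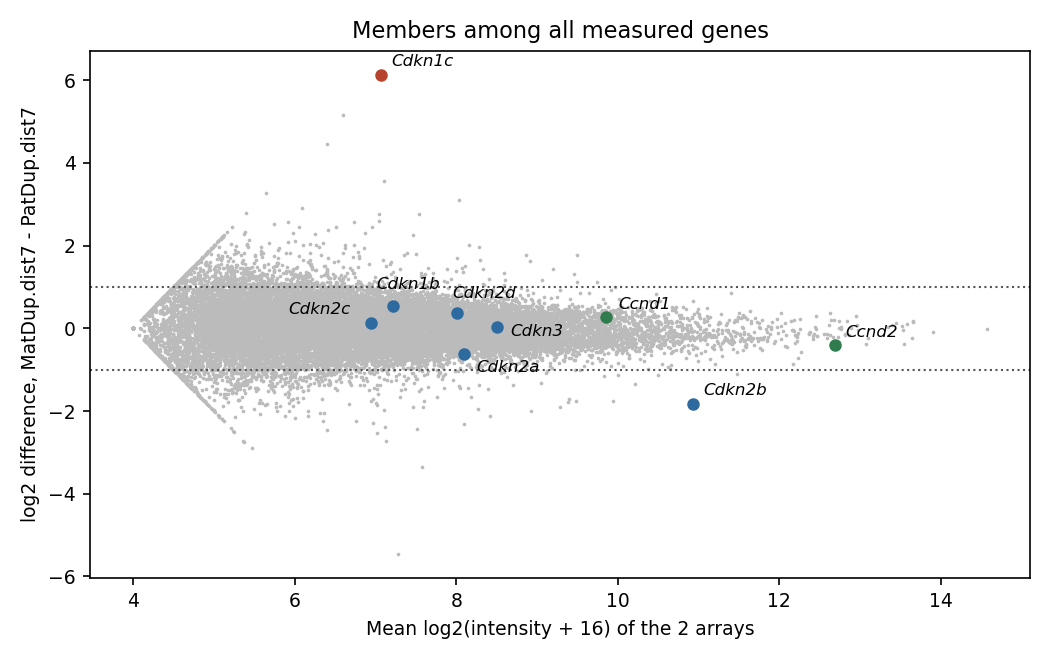
Difference in log2(intensity + 16), MatDup.dist7 minus PatDup.dist7, against the mean of the 2 arrays for 19938 genes (grey), with Cdkn1c in red, other inhibitors in blue and D cyclins in green; dotted lines mark 2-fold. Cdkn1c (6.13) and Cdkn2b (-1.82) stand outside the dense band of genes at their levels, and the other 7 lie inside the 2-fold lines.

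The probe sets of one gene give a yardstick within the arrays. It used genes with several probe sets above the median signal on at least 1 array. Over these 1722 probe sets of 642 genes, the log2 differences of probe sets of the same gene had a standard deviation of 0.40. The standard deviation holds no variation between cultures. The differences of Cdkn2c, Cdkn2d and Cdkn3 are smaller than this value. Those of Cdkn1b and Cdkn2a exceed it slightly, and 26.7% and 20.8% of the genes above the median signal were at least as far apart in either direction. For Cdkn2b this share was 0.746%.

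**Figure D3:**
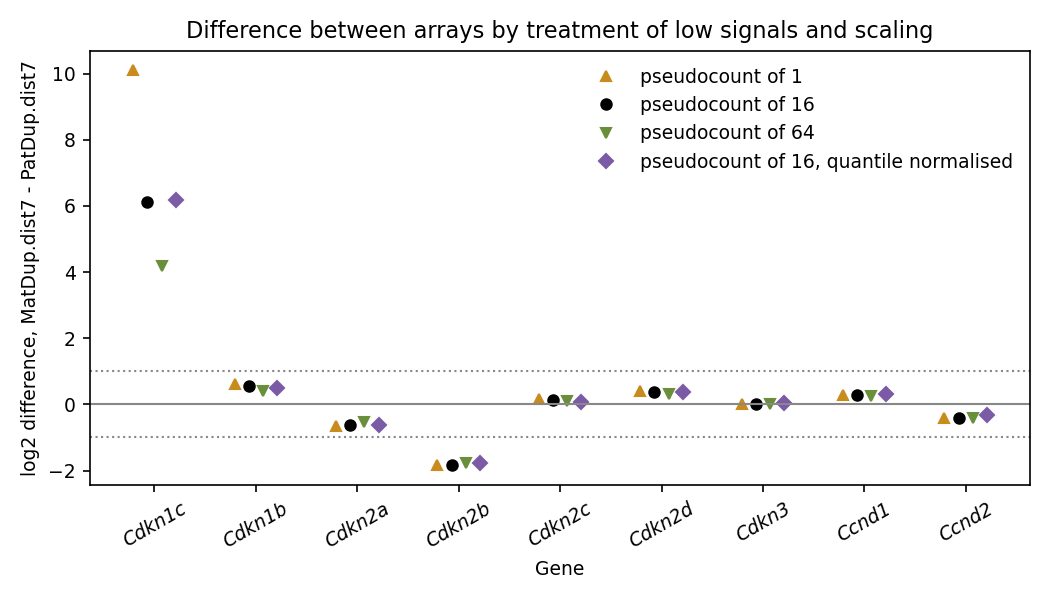
Difference between the arrays (log2, MatDup.dist7 minus PatDup.dist7) for each measured gene with constants of 1, 16 and 64 added to the intensity and after quantile normalisation; dotted lines mark 2-fold. Cdkn1c moves from 10.1 to 4.20 as the constant grows, whereas Cdkn2b stays near -1.82.

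Cdkn3 differed least of all members. It encodes a phosphatase that removes the activating phosphate from Cdk2 and is therefore an inhibitor of another kind than the binding proteins above. It had a signal of 352 for MatDup.dist7 RNA and 346 for PatDup.dist7 RNA, a difference of 0.02, which became -0.06 when each array was centred on its median. Of the genes above the median signal, 96.8% were at least as far apart.

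The D cyclins differed in opposite directions, each by less than 2-fold. Ccnd1, which couples growth factor signals to Cdk4 and Cdk6, had 997 for MatDup.dist7 RNA and 824 for PatDup.dist7 RNA (difference 0.27, or 1.21-fold). Ccnd2, a D cyclin with the same partners, had 5711 and 7558 (difference -0.40, or 1.32-fold). Their median difference was -0.07, and neither passed 2-fold, which 7.63% of all genes did in either direction. Ccnd1 also lies near the distal end of chromosome 7, 23 places beyond Cdkn1c among 1738 measured genes in order along the chromosome. The labels do not state where the duplicated segment begins.

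The other genes of the D cyclin step, all higher in PatDup.dist7, lay within 2-fold. Ccnd3, the remaining D cyclin gene, had 263 for MatDup.dist7 RNA and 272 for PatDup.dist7 RNA (-0.05). Cdk4 had 1188 and 1294 (-0.12), and Cdk6 had 340 and 526 (-0.61). The retinoblastoma gene Rb1 had 161 and 239 (-0.53), and its relatives Rbl1 and Rbl2 had differences of -0.33 and -0.16. All 6 genes of these lists had negative differences, as did 48.6% of all genes. None reached 2-fold, which 7.63% of all genes did in either direction.

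Downstream of these kinases, genes for E2F factors went both ways. Of 10 genes for E2F factors and their partners, 6 were higher in MatDup.dist7 (median 0.16, mean 0.02), near the 51.4% of all genes, with the repressive factor gene E2f7 at 144 and 71.3 (0.87) and the factor genes E2f8 at 13.2 and 36.8 (-0.86) and E2f1 at 63.6 and 101 (-0.56). Of 6 measured E, A and B cyclins and their kinases, 5 were higher in MatDup.dist7 (median 0.41). Among them Ccne1, the cyclin gene of the entry into S phase, had 410 and 271 (0.57), and the mitotic cyclin gene Ccnb2 had 88.6 and 50.9 (0.64). Cdk2, the kinase inhibited by Kip1, had 151 and 193 (-0.33). None of these 16 genes reached 2-fold on the log2(intensity + 16) scale, which 7.63% of all genes did in either direction. E2f7 and E2f8, whose plain intensities differ by more than 2-fold, stay below it on this scale.

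Most genes of the cell cycle phases themselves stood higher in MatDup.dist7, the array with high Cdkn1c. Of 15 S phase genes 11 were higher there (median 0.22), and of 15 genes of G2 and mitosis 12 were (median 0.51), against 51.4% of all genes. The kinetochore gene Cenpf had 109 and 35.9 (1.27) and was the 1 gene of either list past 2-fold, which 7.63% of all genes passed in either direction. Cdc45, a replication helicase factor gene, had 115 and 70.7 (0.60). A further list held 8 genes for enzymes, or subunits of enzymes, that activate or brake the kinases. In it, 5 were higher in PatDup.dist7 (list median -0.38, mean -0.09), against 48.6% of all genes. Of these 5, Cdc25c and Mnat1 had the largest differences (-0.70 and -0.68). The other 3 were higher in MatDup.dist7, among them Pkmyt1, an inhibitory kinase of Cdk1, with 238 and 123 (0.87).

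Regulators known to act on the inhibitors differed by less than 2-fold, as did most genes (7.63% of all genes were at least 2-fold apart). Of 31 measured upstream regulators, 19 were higher in PatDup.dist7 (median -0.13), against 48.6% of all genes. The transcription factor gene Ets1, an activator of Cdkn2a, had 75.3 and 134 (-0.72). From this list, the transforming growth factor beta branch was picked out after the values were seen because it is known to induce Cdkn2b. Its ligand genes Tgfb1, Tgfb2 and Tgfb3 had differences of -0.55, -0.37 and -0.37. The receptor genes Tgfbr1 and Tgfbr2 had -0.09 and -0.63. The signal transducers Smad2, Smad3 and Smad4 had -0.43, -0.65 and 0.02. Whether this branch bears on the Cdkn2b difference was not tested.

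Polycomb genes, whose proteins silence the Cdkn2a and Cdkn2b locus, were likewise picked after the values were seen and went both ways. Bmi1 had 179 and 145 (0.28), Cbx7 had 293 and 206 (0.48), and Cbx8 had a difference of 0.20. Rnf2 and Ring1 had -0.47 and -0.10, and Ezh2, the gene of the histone methyltransferase, had 0.02. Whether these genes bear on the Cdkn2a and Cdkn2b differences was not tested.

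Of 13 measured p53 targets apart from Cdkn1a, 9 were higher in PatDup.dist7 (median -0.21), against 48.6% of all genes (53.6% with each array centred on its median). Perp, a membrane protein gene, had 202 and 402 (-0.94), and Gadd45a, a DNA damage response gene, had 92.8 and 184 (-0.88). Mdm2, the ubiquitin ligase gene of p53, had 1018 and 1576 (-0.62), while the death-promoting Bbc3 had 258 and 170 (0.56). Of 14 genes for the turnover of inhibitors and D cyclins, 10 were higher in PatDup.dist7 (median -0.17), against the same 48.6% of all genes. Skp2, which targets Kip1 for destruction, had 85.4 and 107 (-0.28), and its cofactor Cks1b had 180 and 159 (0.16). Cks2, a kinase-binding relative of Cks1b, had 120 and 79.7 (0.66), and Cul4a, a scaffold of another ligase, 296 and 475 (-0.66). In the 9 related genes, 5 were higher in PatDup.dist7 (median -0.04), or 4 after quantile normalisation, close to the 48.6% of all genes. Among them Cables1, which encodes a Cdk-binding protein, had 189 and 131 (0.49).

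**Figure D4:**
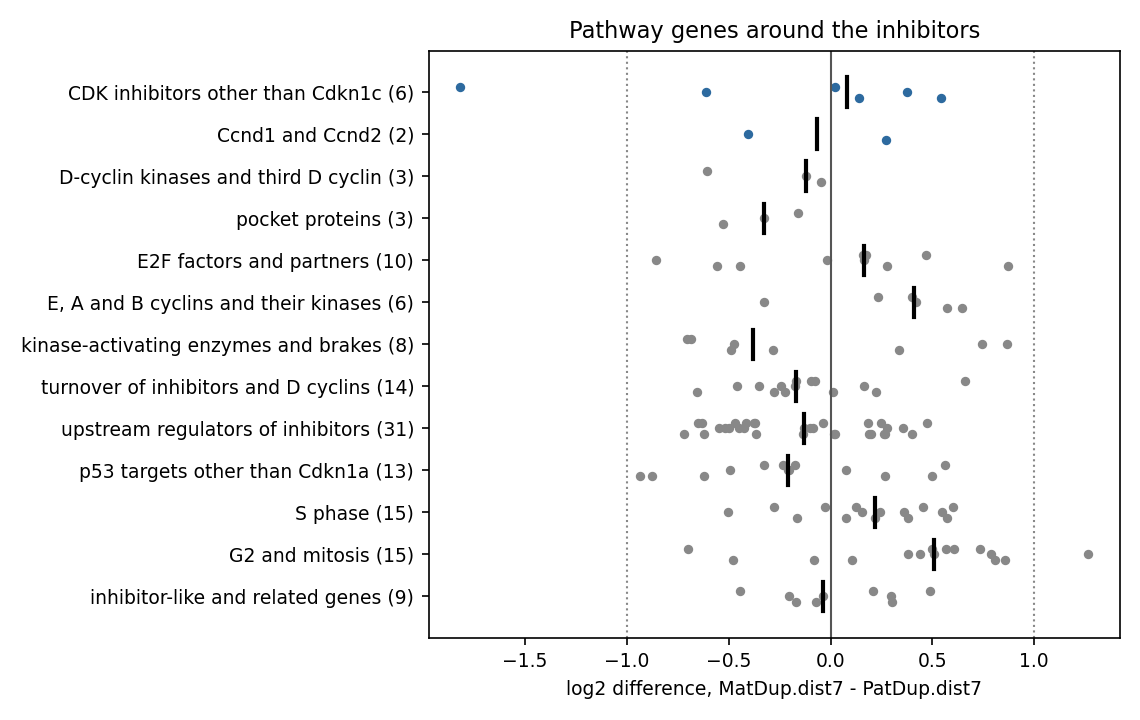
Difference between the arrays (log2(intensity + 16), MatDup.dist7 minus PatDup.dist7) of each measured gene, by list, with the number measured in brackets, the list median as a black bar and 2-fold as dotted lines. The other inhibitors spread from -1.82 to 0.54 around a median of 0.08, while G2 and mitosis genes have a median of 0.51.

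The genes whose log2 difference lay nearest to that of Cdkn1c were Endov (564 and 0.0898), Sfn (398 and 2.02 as means of 2 probe sets) and Ppbp (459 and 24.0), with Gm and Rik symbols set aside. Those nearest to Cdkn2b were Dkk2 (38.5 and 176), Lrrc2 (10.7 and 78.6) and Ccn3 (9.71 and 74.2). These 6 genes passed the filter at the median signal through 1 array only, so their nearness in log2 depends on the constant of 16 and is given as a description. Cdkn2b itself was well above that filter on both arrays.

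The label of embryonic fibroblasts was checked against cell type markers. The 12 fibroblast markers summed to 30487.5 in MatDup.dist7 and 36217.7 in PatDup.dist7, with 9 of 12 higher in PatDup.dist7. The sums rest mostly on Vim, Col1a1 and Col1a2, and the mesenchymal filament gene Vim had 11913 and 11542. At least 2-fold higher in PatDup.dist7 were 2 of the 12, against 3.16% of all genes. These were Dcn with 142 and 592 (-1.95) and Postn with 520 and 1788 (-1.75), while 3 of the 12 were higher in MatDup.dist7. Markers of macrophages were also present, with sums of 5021 and 5290 over 10 genes and 6 of 10 higher in PatDup.dist7. The counts of markers higher in PatDup.dist7 in this paragraph stand against 48.6% of all genes. The sums were 785 and 445 for 7 epithelial markers, 944 and 304 for 5 cartilage markers and 249 and 319 for 5 endothelial markers. The 5 neural markers summed to 2034 and 1219, a sum carried by Stmn2 (755 and 73.7) and Tubb3, while 3 of the 5 were higher in PatDup.dist7 (median -0.22). The 5 skeletal muscle markers summed to 2524 and 2188, a sum carried by Acta1 (1887 and 1379), and again 3 of 5 were higher in PatDup.dist7 (median -0.27). No marker of these lists had a value under 1 on either array. In bulk RNA, fewer cells of a type and less RNA per cell cannot be told apart, and the part of these cell types in the values of the inhibitors and cyclins was not tested.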

How the data were processed

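Total RNA of 1 MatDup.dist7 and 1 PatDup.dist7 MEF culture was measured on 1 array each. The deposited table holds linear intensity values per probe set, made by the authors with Affymetrix Expression Console, per the submitters' processing notes. For its version, background correction, summarisation and normalisation, the sources used here give nothing. Of 35557 probe sets, 21789 had 1 symbol in the platform annotation, 1621 several and 12147 none, and 21698 of the first were matched by gene identifier to the gene table of GRCm38.p6, which gave current symbols and gene order. The array's build is not given, so coordinates are printed only for RefSeq promoter windows.

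log2(intensity + 16) was computed, and probe sets of a gene were averaged (Python 3.11.15, pandas 2.3.3, numpy 2.4.6). With 1 array per genotype no test was made, and the number of arrays limits precision. Counts used a 2-fold rule. The calculation was tested on simulated data with planted shifts larger than the difference of any member but Cdkn1c. That test checked that such large shifts kept their direction, so it says nothing about how firm the small differences are. The members, lists and rules were chosen with earlier results of these data known. Every member was named, and in each pathway list up to 4 genes past 2-fold, or the gene with the largest difference where none was. Other list genes were chosen after their values were seen.

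Alternatives were constants of 1 and 64, a floor at the 25th percentile, median centring, quantile normalisation, the brightest probe set per gene, a filter at the median signal, omission of values under 1, a 3-fold rule and omission of X and Y genes.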

Additional observations from a re-analysis of the deposited data

How the results depend on the processing

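Of 202 comparisons of a result with an alternative, 195 moved by less than the 0.40 between probe sets of a gene, or by no more than 1.5 times for a count. The others concern Cdkn1c and the count of all genes. Many of the 195 could not move. For a gene with 1 probe set and strong signals, the probe set choice, the signal filter and the omission of values under 1 change nothing. The 0.40 also exceeds small differences such as the 0.14 of Cdkn2c and the 0.02 of Cdkn3, so a change of sign could count as unmoved. The 195 is therefore no measure of how firm these results are. The Cdkn1c difference of 6.13 was 10.1 with a constant of 1, 4.20 with a constant of 64 and 5.66 with the floor, and it could not be computed when values under 1 were left out. The 1522 genes at least 2-fold apart became 3887 with a constant of 1, 173 with 64, 659 with the signal filter and 273 at 3-fold. Of the 1522, 891 were higher in MatDup.dist7 and the other 631 in PatDup.dist7, and with median centring the split was 696 and 824. The other inhibitors numbered 2 or 3 higher in PatDup.dist7, the third being Cdkn3 under median centring, and 1 at least 2-fold higher under each alternative. Their median ran from 0.0034 to 0.09. The D cyclin median ran from -0.14 to 0.0023, changing sign under quantile normalisation. No paired analysis was possible because each genotype has 1 array. The direction of each pathway list median was kept under both scalings except for the related genes (0.03 under quantile normalisation). Weak signals limit the size, not the direction, of the Cdkn1c difference.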
